A study of Mus musculus with 12 samples.

Results

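The cytosolic ribosomal proteins are the proteins that, with ribosomal RNA, make up the small and the large subunit of the ribosome outside mitochondria. Members were chosen by gene symbol (Rps and Rpl symbols and the stalk genes Rplp0, Rplp1 and Rplp2). The pattern matched 94 symbols of the table, and 11 of them were left out because they are kinases of the Rps6k family or the Rps19 binding protein. That left 83 members of 15720 genes with an identifier, and 81 of the 83 passed the filter of a mean of at least 0.5 FPKM. FPKM is fragments per kilobase of transcript relative to library size, so levels can be compared between genes. Of the tested members, 32 belong to the small subunit, 46 to the large subunit and 3 to its stalk, the flexible arm that recruits elongation factors.

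EMS404 is a hepatic stellate cell line of C57Bl6 mouse origin, immortalised with SV40 and carrying human TLR4. In the liver, stellate cells can turn into collagen-producing myofibroblasts, and TGFb is a growth factor that drives this change. Cells received a Bmal1 siRNA or a scrambled siRNA, and 48 h later TGFb at 10 ng/mL or vehicle for 24 h. The 4 groups, with 3 libraries each, were Bmal1 siRNA with TGFb, Bmal1 siRNA with vehicle, scrambled siRNA with TGFb and scrambled siRNA with vehicle, and all were the same immortalised line. Bmal1 (listed as Arntl) is a core transcription factor of the circadian clock. The comparisons ask what TGFb did to the ribosomal protein mRNAs under each siRNA, what the Bmal1 siRNA did under each treatment, and whether the TGFb response differed between siRNAs.

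A ribosome needs 1 copy of nearly every ribosomal protein, and cells keep the mRNAs in balance. Most of these mRNAs begin with a terminal oligopyrimidine tract (TOP), a run of C and U bases through which mTOR signalling controls their translation rather than their amount. Assembly takes place mainly in the nucleolus, where RNA polymerase I makes ribosomal RNA and a large set of assembly factors, many of them targets of the transcription factor Myc, folds and trims it.

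A pyrimidine run at the annotated start was more frequent in these genes than in all genes, but many members had none of the length sought. RefSeq promoter windows (GRCm38.p6, 250 bases before to 50 after the annotated start) were matched by symbol for 63 of the 83 members, with 75 windows. A run of at least 6 C or T bases that comes within 5 bases of the start was found in 31 of the 63 members (49.2%), against 23.0% of all 27018 genes with a window. The median longest run was 5 bases in the members and 4 in all genes. The following stretches, 40 bases before to 10 after the start and written 5′ to 3′ on the gene's strand, are from some of the genes that the test called. The first pair fell most with TGFb and has short runs, and the others shown have longer or intermediate ones. Called genes with a window that are not shown had runs of at most 5 bases. These were 5 at Rpl39, 3 at Rpl36a, Rps15 and Rps4x, 1 at Rpl7l1, and 4 and 1 at the starts of Rpl22. The stretches shown therefore do not stand for all called genes. Capitals mark the longest run of C and T at the start.
Rpl37a, chr1:72711220-72711269, plus strand: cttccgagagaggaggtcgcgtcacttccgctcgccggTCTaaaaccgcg
Rps28, chr17:33824553-33824602, minus strand: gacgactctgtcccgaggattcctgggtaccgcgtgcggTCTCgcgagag
Rplp2, chr7:141447611-141447660, plus strand: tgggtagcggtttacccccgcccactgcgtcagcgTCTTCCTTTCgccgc
Rps10, chr17:27635235-27635284, minus strand: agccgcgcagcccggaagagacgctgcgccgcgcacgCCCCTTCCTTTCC
Rpl27a, chr7:109519155-109519204, plus strand: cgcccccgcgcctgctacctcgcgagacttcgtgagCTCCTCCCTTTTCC
Rpl27, chr11:101442205-101442254, plus strand: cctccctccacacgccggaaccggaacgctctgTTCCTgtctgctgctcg
The runs measured 3 bases at Rpl37a, 4 at Rps28, 5 at Rpl27, 10 at Rplp2 and 13 at Rps10. The run of 20 bases at Rpl27a continues past the end of the stretch shown. An annotated start can lie some bases from the start used in these cells, and a run that is not at the annotated start says nothing about the mRNA made.

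BMAL1 binds, with its partner CLOCK, to the E-box CACGTG. On either strand, CACGTG was found in the windows of 6 of the 63 members (9.5%), against 8.1% of all genes with a window. The stretches around it are shown because the siRNA targeted Bmal1, with the E-box in capitals.
Rpl13a, chr7:45128923-45128962, minus strand: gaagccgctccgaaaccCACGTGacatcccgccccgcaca
Rpl14, chr9:120571332-120571371, plus strand: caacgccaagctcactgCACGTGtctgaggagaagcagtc
Rpl19, chr11:98026674-98026713, plus strand: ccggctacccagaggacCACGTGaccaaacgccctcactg
Rpl23, chr11:97782430-97782459, minus strand: gctggacgaggtccggtCACGTGgctgagt
Rpl34, chr3:130730531-130730570, minus strand: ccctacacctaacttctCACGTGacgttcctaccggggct
Rps19, chr7:24884776-24884815, plus strand: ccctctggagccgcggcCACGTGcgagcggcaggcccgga
A match is a string of letters and not a site shown to be bound. Searched on both strands in the same windows, CCGGAA, a core of ETS-family sites, was in 34 of 63 members (54.0%) against 16.7% of all genes. CAGAC, a short SMAD element, was in 30 members (47.6%) against 53.2% of all genes. TATAA, the TATA-box core, was in 17 members (27.0%) against 28.0%.

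Ribosomal protein mRNAs were among the most abundant in these cells. Their mean FPKM over the 12 libraries had a median of 635.6, with quartiles of 373.5 and 1083.8, against a median of 12.9 for all 11208 tested genes. Of the 100 genes with the highest mean FPKM, 48 were members, and 75 of the 81 tested members were over 100 FPKM. By subunit, the median FPKM was 635.2 for the small subunit, 622.1 for the large subunit and 1472.2 for the stalk. Summed, the members made up between 13.7% and 15.7% of all FPKM of a library. That share averaged 15.0% ± 0.631 with Bmal1 siRNA and TGFb, 14.1% ± 0.253 with Bmal1 siRNA and vehicle, 14.2% ± 0.376 with scrambled siRNA and TGFb, and 14.4% ± 0.545 with scrambled siRNA and vehicle (SD, n = 3 each). Under Bmal1 siRNA every TGFb library lay above every vehicle library, although the closest of them both round to 14.4%. The ranges overlapped between TGFb and vehicle under scrambled siRNA, and between the siRNAs under either treatment.

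**Figure D1:**
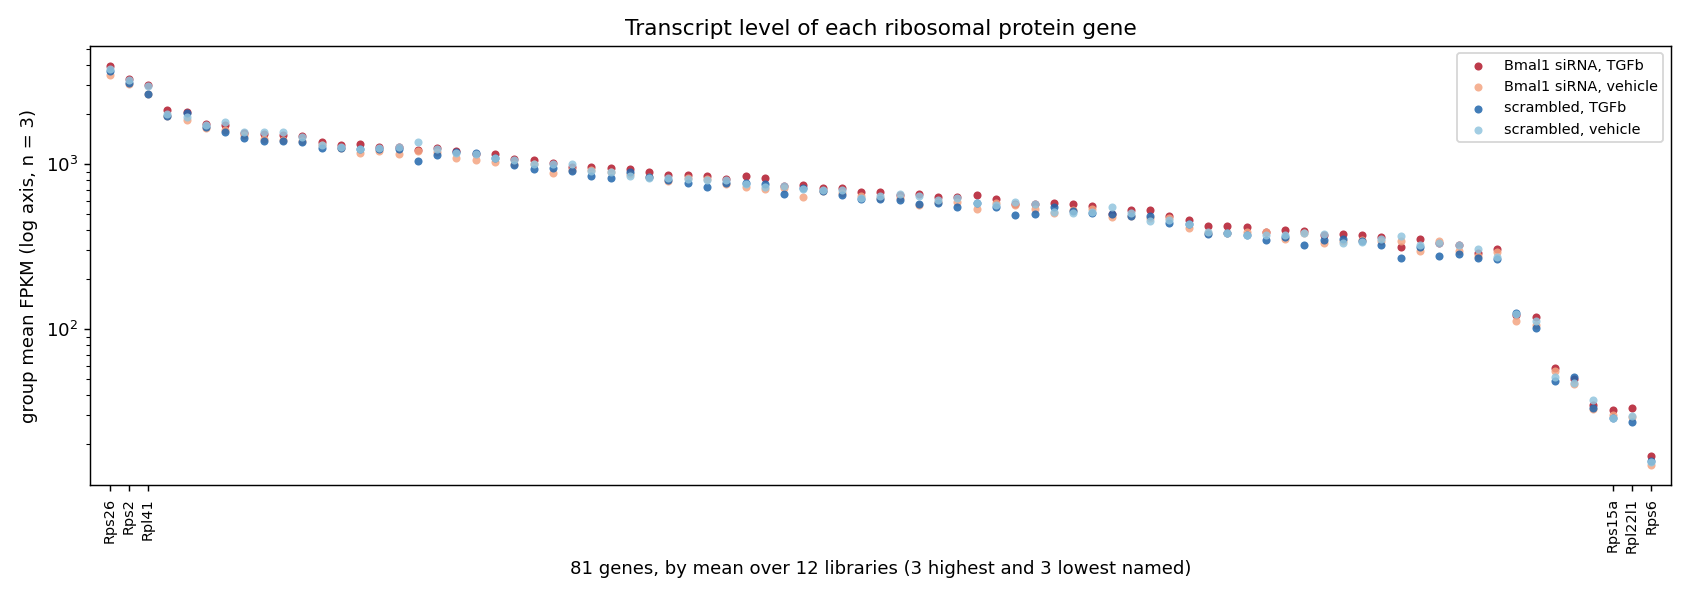
Group mean FPKM (log axis, n = 3 a group) of each tested ribosomal protein gene, ordered by its mean over the 12 libraries, with 1 point for each of the 4 groups. Means over the 12 libraries span 15.9 to 3706.2 FPKM, 6 members lie under 100 FPKM, and the groups of a gene lie close together on this axis.

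The highest level was that of Rps26, a small-subunit protein at the mRNA exit channel, with a mean of 3706.2 FPKM. By group it averaged 3930.6 ± 187.3 FPKM with Bmal1 siRNA and TGFb, 3467.7 ± 170.3 with Bmal1 siRNA and vehicle, 3662.1 ± 94.1 with scrambled siRNA and TGFb and 3764.5 ± 317.0 with scrambled siRNA and vehicle (SD, n = 3 each). Rps2, at the mRNA entry channel, followed with 3159.3 FPKM and Rpl41, the smallest ribosomal protein, with 2820.0 FPKM. The group means kept this order: those of Rps2 reached 3272.4 FPKM at most, against at least 3467.7 for Rps26, and those of Rpl41 2997.5 at most.

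The lowest tested levels were 15.9 FPKM for Rps6, 29.8 for Rpl22l1 and about 30 for Rps15a. Rps6 is the S6 protein phosphorylated by S6 kinases and belongs to every small subunit. The factor of 233.5 between Rps26 and Rps6 is therefore not a ratio of proteins in the ribosome. Near-identical pseudogenes (at least 95% identity over at least 80% of the coding sequence, in the reference annotation) were found for 74 members, 537 in all, with a median of 4 for a member and up to 56 for Rpl21. Among the lowest members Rps6 had 11, Rpl22l1 had 2 and Rps15a had 6, and among the highest Rps26 had 3, Rps2 had 17 and Rpl41 had 0. Reads that fit a gene and its copies can be lost or moved in counting, and the sources used here do not say how the authors treated them, so the levels of members with copies are uncertain. Exons of 39 members also share bases with another annotated gene, and 30 members hold 58 snoRNA genes inside them.

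Several members have a paralogue, and some of these copies can stand in for their partner in the ribosome. Each copy was the lower of its pair. Rps27l had a mean of 48.6 FPKM against 911.1 for Rps27, Rpl36al 120.8 against 320.6 for Rpl36a, and Rpl7l1, whose yeast relative works in subunit assembly, 34.3 against 636.5 for Rpl7. Rpl22l1 had 29.8 FPKM against 53.4 for Rpl22, the pair closest in level. The tissue-restricted copies were nearly silent and were the 2 members under the filter. Rpl3l, a heart and skeletal muscle form, had a mean of 0.0158 FPKM against 525.5 for Rpl3, and Rpl10l, a testis form, 0.00333 against 1304.1 for Rpl10. Rpl3l was above 0 in the 3 Bmal1 siRNA TGFb libraries (0.05, 0.03 and 0.03 FPKM), in 1 scrambled TGFb library and in 1 scrambled vehicle library (0.04 FPKM each), and Rpl10l in 1 Bmal1 siRNA vehicle library only.

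The targeted gene was lower in the libraries labelled Bmal1 siRNA. Arntl was at 5.05, 4.01 and 4.0 FPKM with Bmal1 siRNA and TGFb, against 10.5, 10.75 and 10.86 with scrambled siRNA and TGFb. With vehicle it was at 3.9, 3.87 and 3.59 FPKM with Bmal1 siRNA, against 5.43, 5.19 and 4.91 with scrambled siRNA. Arntl mRNA was thus lower with the siRNA under both treatments, by a log2 change of -1.13 with TGFb (limma adjusted p = 1.38e-06) and of -0.37 with vehicle (limma adjusted p = 0.049). With vehicle the groups did not overlap, but that p was just under the threshold. It rose past 0.05 in 14 of 23 alternative settings, among them 10 of the 12 fits with 1 library left out. TGFb itself raised it under scrambled siRNA (log2 change 0.92, adjusted p = 6.4e-07). Of the 13 stellate and mesenchymal markers, 11 are listed and sum to 5042.2 to 7300.0 FPKM per library, while Lrat and Reln are not listed. Markers of other liver cells were partly present. Of 9 hepatocyte markers 6 are listed, without Alb, Ttr and Serpina1a, and 3 passed the filter. They sum to 61.8 to 116.5 FPKM with Bmal1 siRNA and TGFb, 214.5 to 249.8 with Bmal1 siRNA and vehicle, 70.6 to 93.2 with scrambled siRNA and TGFb and 198.9 to 219.6 with scrambled siRNA and vehicle. All 6 cholangiocyte markers are listed, with Epcam at 0.5 FPKM or less, and sum in the same order of groups to 105.3 to 189.4, 82.0 to 93.3, 212.3 to 231.3 and 77.4 to 88.9 FPKM. The 8 endothelial markers, with Pecam1, Cdh5 and 3 others at 0.5 FPKM or less, sum to 86.6 to 93.7, 76.3 to 78.4, 105.2 to 111.8 and 80.3 to 84.6 FPKM. Of 9 leukocyte markers 6 are listed, without Ptprc, Adgre1 and Clec4f, and sum to 7.34 to 8.89, 7.86 to 8.67, 8.52 to 10.1 and 11.6 to 14.0 FPKM. The hepatocyte sum was thus lower and the cholangiocyte sum higher with TGFb under both siRNAs, with no overlap. Single markers differed (each at a limma adjusted p under 0.05). Ass1 rose with TGFb under both siRNAs, while Trf and Ahsg fell. Krt7 fell under both and Krt19 under scrambled siRNA, where Spp1, Krt8 and Sox9 rose. Under Bmal1 siRNA Spp1 alone of the cholangiocyte markers rose, and 3 of 5 tested were below 0 in log2 change. The part of these markers in the results below was not tested. FPKM totals ranged from 445472.1 to 483956.9, and 13673 to 13975 genes were above 0. Sequencing depth is unknown, so no counting interval can be given.

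Ribosomal protein mRNAs moved together from library to library. For each tested member, log2 FPKM was set against its own mean over the 12 libraries, and the median of these offsets over the members was taken per library. With Bmal1 siRNA and TGFb the 3 offsets were -0.03, 0.17 and 0.08, and with Bmal1 siRNA and vehicle they were -0.04, -0.06 and 0.01. With scrambled siRNA and TGFb they were -0.13, 0.00 and -0.03, and with scrambled siRNA and vehicle 0.11, -0.04 and -0.03. So 3 libraries stood apart. The second Bmal1 siRNA TGFb library held the highest value of 50 of the 81 members, the first scrambled vehicle library that of 28, and the first scrambled TGFb library the lowest value of 47. These libraries were the second highest, the highest and the lowest in FPKM total. The second Bmal1 siRNA TGFb library also stood apart in Acta2, the smooth muscle actin of activated stellate cells, with 113.79 FPKM against 185.29 and 187.96 in the other libraries of its group. The part of library composition in the differences below was not tested. The median SD of a member over the 12 libraries was 0.104 on the log2 scale, and 0.0618 after each library was centred on the members' median. It was 0.115 for the 691 other genes over 100 FPKM, which were not centred.

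**Figure D2:**
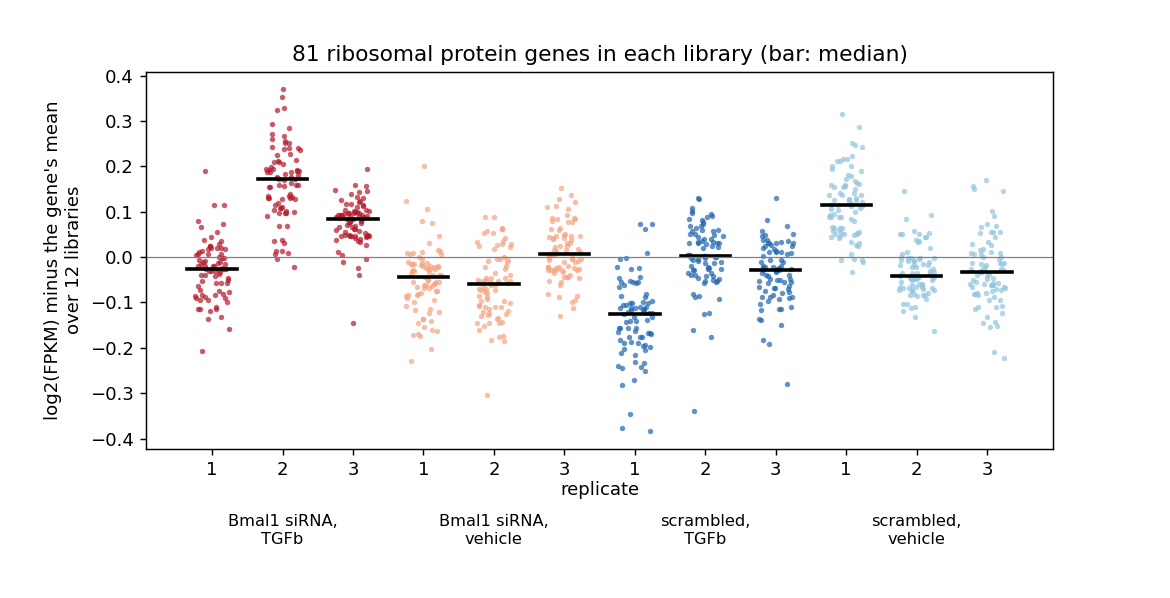
Offset of each tested ribosomal protein gene from its own mean over 12 libraries, in log2 FPKM, by library and group; the bar marks the median of the 81 members. The second Bmal1 siRNA TGFb library (0.17) and the first scrambled vehicle library (0.11) sit highest and the first scrambled TGFb library (-0.13) lowest.

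TGFb under scrambled siRNA lowered 10 ribosomal protein mRNAs and raised none on the deposited scale, while equal totals gave 2 higher and 7 lower and quantile normalization 6 higher and 8 lower. Differences were tested with limma on log2(FPKM + 1) over all 11208 genes, two-sided, and a gene counted as called where its p, adjusted by Benjamini-Hochberg over these genes, was under 0.05. The 10 called members are 12.3% of the 81, while 29.1% of all tested genes were called lower, 16.4% higher and 45.5% in either direction. Among the 691 other genes over 100 FPKM, 38.2% were called lower and 16.6% higher. The share of members called was thus below that of the other genes. The median log2 change of the members was -0.06, against -0.05 for all genes, with 62 members below 0 and 19 above, but 0.01 under median-of-ratios scaling. Of all 11208 genes, 6499 were below 0 on the deposited scale. The 3 TGFb libraries lay wholly below the 3 vehicle libraries in 15 of the 81 members and wholly above in 0 of 81. All genes gave shares of 34.7% and 20.3%. In this bulk RNA, fewer cells of a kind and less RNA per cell cannot be told apart.

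Rpl37a, a zinc-finger protein of the large subunit (chr1:72711290-72713813, plus strand), changed most. It had 262.52, 282.43 and 262.83 FPKM with TGFb against 389.66, 353.33 and 356.09 with vehicle. The groups did not overlap, and the fall came to 26.4%. The log2 change was -0.44 ± 0.0792 (SE, n = 3 each; limma adjusted p = 0.00052; 95% interval -0.61 to -0.27). Under all 23 alternative settings Rpl37a stayed called, with adjusted p between 6.96e-05 and 0.00332.

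Rps28, a small-subunit protein at the mRNA exit channel (chr17:33819027-33824562, minus strand), came next. Its levels were 991.86, 1070.24 and 1054.85 FPKM with TGFb against 1489.26, 1234.63 and 1346.21 with vehicle. Again no TGFb library reached a vehicle library. The log2 change was -0.38 ± 0.081 (SE; limma adjusted p = 0.00184) and stayed called under all 23 settings. Rps28 shares 88 exon bases with Kank3 and has 7 near-identical pseudogenes, and Rpl37a has 4.

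The stalk carries P proteins that call in the GTPase factors of elongation. Rplp2 had 466.1, 436.71 and 562.46 FPKM with TGFb against 614.77, 572.26 and 580.81 with vehicle, a log2 change of -0.28 ± 0.0859 (SE; limma adjusted p = 0.0178). The third TGFb library lay just under the lowest vehicle library, and the call was lost in 6 of 23 settings. Rplp1 had a log2 change of -0.20 (limma adjusted p = 0.0369), with 1287.59, 1466.65 and 1354.85 FPKM with TGFb against 1688.69, 1521.46 and 1496.47 with vehicle. Rplp0, the stalk base, had a log2 change of -0.05 (limma adjusted p = 0.524). Rplp0 and Rplp1 were named after their values were seen.

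Rpl36a and Rpl39 are short proteins of the large subunit. Rpl36a had 250.76, 299.97 and 279.34 FPKM with TGFb against 342.89, 337.87 and 316.19 with vehicle, a log2 change of -0.27 ± 0.0798 (SE; limma adjusted p = 0.0151). Rpl39, at the peptide exit tunnel, had 282.77, 336.5 and 346.57 FPKM with TGFb against 399.19, 372.21 and 378.24 with vehicle, a log2 change of -0.26 ± 0.0853 (SE; limma adjusted p = 0.0262). In both genes the groups did not overlap and the first TGFb library was the lowest. The other called members had smaller log2 changes: -0.21 for Rpl27a, -0.19 for Rps15, -0.19 for Rps10 and -0.17 for Rpl7l1, with limma adjusted p between 0.0209 and 0.0476. Of these, Rps15 overlapped between the groups, with 1648.84 FPKM in its highest TGFb library and 1646.72 in its lowest vehicle library. Of 23 alternative settings, the call was lost in 15 for Rps15, 14 for Rpl27a, 10 for Rplp1, 9 for Rpl7l1, 7 for Rps10, 6 for Rpl39 and 2 for Rpl36a. With a replicate block the limma adjusted p was 0.0601 for Rps15, 0.0519 for Rpl27a and 0.0517 for Rplp1. Rpl27a and Rps15 were also named after their values were seen.

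Without the first scrambled vehicle library, or without the first scrambled TGFb library, 2 members were called lower in place of 10. Leaving out the third scrambled TGFb library left 5, and leaving out the second TGFb library of each siRNA gave 16. With 1 library left out at a time, 2818 to 3477 of all 11208 genes were called lower. Scaled by median-of-ratios factors, 3 members were called lower. That scaling moved all genes to 2503 higher and 2522 lower calls, against 1841 and 3264 on the deposited scale. Scaled to equal totals, 2184 genes were called higher and 2609 lower. No member was beyond 0.5 in log2 change, while 1530 of all genes were.

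**Figure D3:**
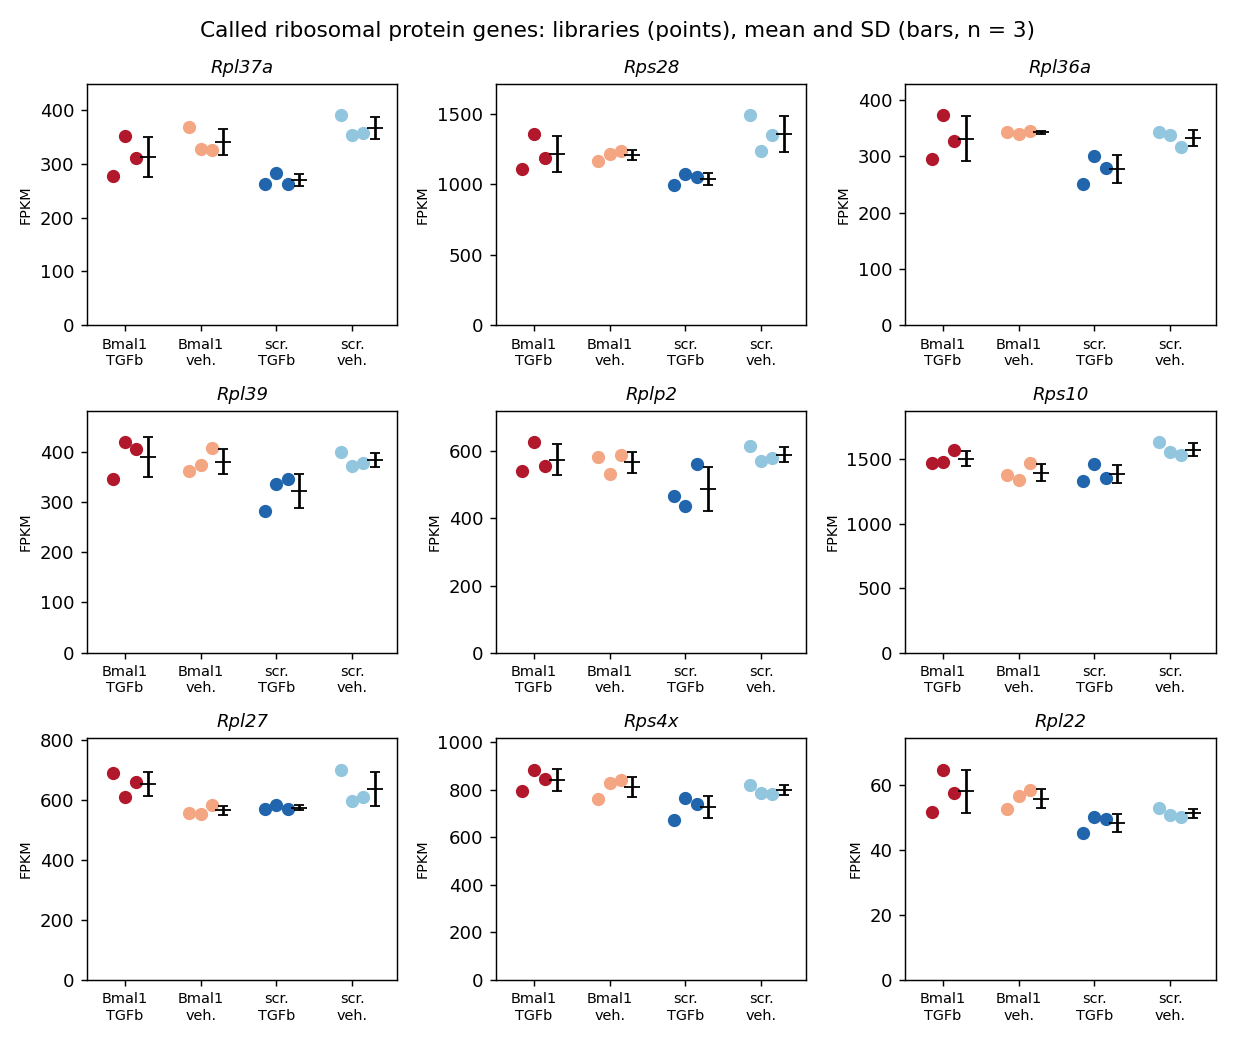
FPKM of 9 ribosomal protein genes that were called in at least 1 comparison, by library; points are libraries, and the dash with error bars beside them is the group mean with its SD (n = 3), with scrambled written scr. and vehicle veh. Rpl37a and Rps28 show scrambled TGFb libraries below every scrambled vehicle library, and Rpl27 shows Bmal1 siRNA TGFb libraries above every Bmal1 siRNA vehicle library.

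Under Bmal1 siRNA, TGFb raised 3 ribosomal protein mRNAs and lowered none on the deposited scale, while quantile normalization gave 13 higher and 1 lower. On the deposited scale the 3 are 3.7% of the members, while 8.9% of all genes were called higher, 10.1% lower and 19.0% in either direction. The share of all genes under quantile normalization is not reported here. The median log2 change of the members was 0.10, against 0.00 for all genes, with 78 of 81 above 0 and a range of -0.12 to 0.28. Of all 11208 genes, 5710 were above 0. The TGFb libraries lay wholly above the vehicle libraries in 25 of the 81 members and wholly below in 0 of 81, where all genes gave shares of 17.6% and 17.9%.

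Of the called members, Rpl27, a large-subunit protein, had 690.59, 611.15 and 660.72 FPKM with TGFb against 558.39, 554.13 and 583.82 with vehicle, a log2 change of 0.21 ± 0.0643 (SE; limma adjusted p = 0.0382). All 3 TGFb libraries of Rpl27 were above all 3 vehicle libraries, and the call was lost in 9 of 23 settings. Rpl30 had the largest change, 0.28, and missed the threshold (limma adjusted p = 0.0544), with 571.51, 729.85 and 644.3 FPKM with TGFb against 559.77, 471.44 and 568.88 with vehicle. Rpl37a, the gene lowered most under scrambled siRNA, had 276.48, 350.48 and 310.49 FPKM with TGFb against 367.05, 327.1 and 324.88 with vehicle, which overlap, and a log2 change of -0.12 (limma adjusted p = 0.303).

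The count of members called higher was 7 without the first Bmal1 siRNA TGFb library and 0 without the third library of that group. It was 0 without the second Bmal1 siRNA vehicle library, 1 without the first, and 7 without the first scrambled vehicle library, which enters only through the shared estimate of the spread. With the second Bmal1 siRNA TGFb library left out, the 3 members called higher were joined by 1 called lower. Over the fits with 1 library left out, 490 to 1535 of all 11208 genes were called higher. When each library was scaled to the members' own median, no member was called higher and 1 was called lower. That scaling moved the median of all genes to -0.0986.

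With vehicle, the Bmal1 siRNA changed no ribosomal protein mRNA past the threshold. Few genes passed at all here (0.294% higher, 0.366% lower and 0.66% in either direction). At an unadjusted limma p under 0.05, 8 of the 81 members would pass, where all genes gave 21.7%. The 95% intervals of the members' log2 changes ran from -0.36 to 0.28, so changes beyond these bounds lie outside the interval of every member. The median of the members was -0.06, against 0.01 for all genes, and 59 of 81 were below 0. Of all 11208 genes, 5320 were below 0. Bmal1 siRNA libraries lay wholly below scrambled libraries in 15 of the 81 members and wholly above in 1 of 81, where all genes gave shares of 15.1% and 16.7%. Rpl7l1 had the smallest p, with 34.56, 31.74 and 31.31 FPKM with Bmal1 siRNA against 40.66, 35.63 and 35.56 with scrambled siRNA (log2 change -0.19, limma adjusted p = 0.115). Rpl36, a large-subunit protein, had the same log2 change of -0.19 (limma adjusted p = 0.187). At the other end Rpl22 had a log2 change of 0.12 and Rpl23 of 0.10, with overlapping groups in Rpl22 (52.63, 56.57 and 58.55 FPKM with Bmal1 siRNA against 52.99, 50.84 and 50.28 with scrambled siRNA).

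With TGFb, 4 ribosomal protein mRNAs were higher with Bmal1 siRNA and none was lower. They are 4.94% of the members, while 16.0% of all genes were called higher, 7.16% lower and 23.2% in either direction. The median log2 change of the members was 0.13, against 0.06 for all genes, with 78 of 81 above 0. Of all 11208 genes, 7437 were above 0. Bmal1 siRNA libraries lay wholly above scrambled libraries in 21 of the 81 members and wholly below in 0 of 81, where all genes gave shares of 28.1% and 11.0%. This comparison shares its scrambled TGFb libraries with the TGFb comparison under scrambled siRNA, and its Bmal1 siRNA TGFb libraries with that under Bmal1 siRNA, so the results are not independent.

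Rpl22, a large-subunit protein with roles in lymphocytes, had 51.7, 64.86 and 57.71 FPKM with Bmal1 siRNA against 45.28, 50.34 and 49.56 with scrambled siRNA. Its log2 change was 0.25 ± 0.0726 (SE; limma adjusted p = 0.0237), and the groups did not overlap. Rps4x, the X-linked small-subunit protein, had 794.49, 884.59 and 843.25 FPKM with Bmal1 siRNA against 674.22, 765.48 and 740.4 with scrambled siRNA, again apart, with a log2 change of 0.21 ± 0.0621 (SE; limma adjusted p = 0.0276). Rpl36a and Rpl39 overlapped between groups. Rpl36a had 294.75, 372.68 and 326.11 FPKM with Bmal1 siRNA against 250.76, 299.97 and 279.34 with scrambled siRNA (log2 change 0.26, limma adjusted p = 0.0352). Rpl39 had 345.31, 418.76 and 405.44 FPKM with Bmal1 siRNA against 282.77, 336.5 and 346.57 with scrambled siRNA (log2 change 0.28, limma adjusted p = 0.0341). In all 4 genes the second Bmal1 siRNA TGFb library was the highest and the first scrambled TGFb library the lowest. Rpl22l1, whose protein can take the place of Rpl22, had 30.3, 38.24 and 30.6 FPKM with Bmal1 siRNA against 22.66, 29.35 and 29.63 with scrambled siRNA, a log2 change of 0.27 ± 0.118 that missed the threshold (limma adjusted p = 0.111). Rps27l and Rpl36al lay at the other end, each with a log2 change of -0.04.

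These calls depend on single libraries and on the scale, and of 23 settings 7 lost the call for Rpl22, 8 that for Rpl36a, 8 that for Rpl39 and 9 that for Rps4x. Without the first Bmal1 siRNA TGFb library 25 members were called higher, and without the second 1 was. Without the third Bmal1 siRNA TGFb library, or without the first scrambled TGFb library, the count was 0. Without the first scrambled vehicle library it was 12. Over the fits with 1 library left out, 1202 to 2047 of all 11208 genes were called higher. Under median-of-ratios scaling no member was called, with adjusted p of 0.0871 for Rpl22, 0.111 for Rpl39, 0.115 for Rpl36a and 0.13 for Rps4x in limma.

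The test of whether TGFb acted differently under the siRNAs called 3 members, 3.7%, all with a higher TGFb response under Bmal1 siRNA. Of all genes, 8.86% were called in that direction, 5.52% in the other and 14.4% in either. The median difference of the members was 0.17 on the log2 scale, against 0.06 for all genes, and 80 of 81 members were above 0. Of all 11208 genes, 6986 had a difference above 0. All 4 groups enter this difference, so it repeats the comparisons above and adds no independent count.

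Rpl27 showed the 2 responses most plainly. Under scrambled siRNA it had 570.21, 583.88 and 568.9 FPKM with TGFb against 701.91, 598.33 and 609.94 with vehicle, a log2 change of -0.14 that missed the threshold (limma adjusted p = 0.0828). Under Bmal1 siRNA it rose, as given above. The difference between the responses was 0.35 ± 0.0909 (SE; limma adjusted p = 0.0215). Rps28 under Bmal1 siRNA had 1105.4, 1357.01 and 1187.0 FPKM with TGFb against 1164.03, 1216.84 and 1233.95 with vehicle, a log2 change of 0.01, and its difference was 0.39 ± 0.115 (SE; limma adjusted p = 0.038). Rps10, a protein of the small-subunit head, had 1467.51, 1473.45 and 1568.68 FPKM with TGFb against 1378.61, 1334.76 and 1466.24 with vehicle under Bmal1 siRNA. Under scrambled siRNA it had 1331.76, 1464.69 and 1351.85 FPKM with TGFb against 1629.06, 1556.4 and 1531.01 with vehicle, and the difference was 0.30 ± 0.0837 (SE; limma adjusted p = 0.0327). Rps10 shares 475 exon bases with a read-through gene, of 2311 in all, so reads from those bases cannot be told apart from that gene's.

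For Rpl37a the difference between responses was 0.32 and missed the threshold (limma adjusted p = 0.0776). At the low end, Rps27l had a difference of -0.04 and Rpl4 of 0.02. Under median-of-ratios scaling none of the 3 calls held (limma adjusted p of 0.0609 for Rpl27, 0.0782 for Rps28 and 0.1 for Rps10). Without the first Bmal1 siRNA TGFb library 14 members were called, and without the second Bmal1 siRNA vehicle library none was. The count was 1 without the third Bmal1 siRNA TGFb library, the first or the third scrambled TGFb library, or the first scrambled vehicle library. Over the fits with 1 library left out, 566 to 1193 of all 11208 genes were called in the same direction.

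Coding length ran with the change in some comparisons. Over the 81 members, Spearman's rho between coding length and log2 change was 0.296 for TGFb under scrambled siRNA and 0.104 under Bmal1 siRNA. It was 0.127 for Bmal1 siRNA with vehicle, -0.335 with TGFb, and -0.319 for the difference between responses. The 21 members with at most 366 coding bases had a median log2 change of -0.14 with TGFb under scrambled siRNA, against -0.05 for the 21 with at least 633 coding bases. Single libraries showed such a relation within their own group: deviations from the group mean gave a rho of 0.444 for the first and -0.36 for the second Bmal1 siRNA TGFb library, and 0.249 for the first and -0.34 for the second scrambled TGFb library. Over 11115 other genes rho was 0.152 for TGFb under scrambled siRNA and -0.0492 under Bmal1 siRNA, for Bmal1 siRNA it was 0.212 with vehicle and -0.128 with TGFb, and for the difference between responses -0.245. These are descriptions across genes, which share libraries and are not independent replicates, and the part of transcript length in the calls was not tested. Rpl37a, with 276 coding bases, Rps28, with 207, and Rpl39, with 153, are among the short members. The other members called lower with TGFb under scrambled siRNA were Rpl36a (318), Rplp1 (342), Rplp2 (345), Rps15 (435), Rpl27a (444), Rps10 (507) and Rpl7l1 (738). Rpl41, with 138 coding bases, and Rps29, with 168, were not called.

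**Figure D4:**
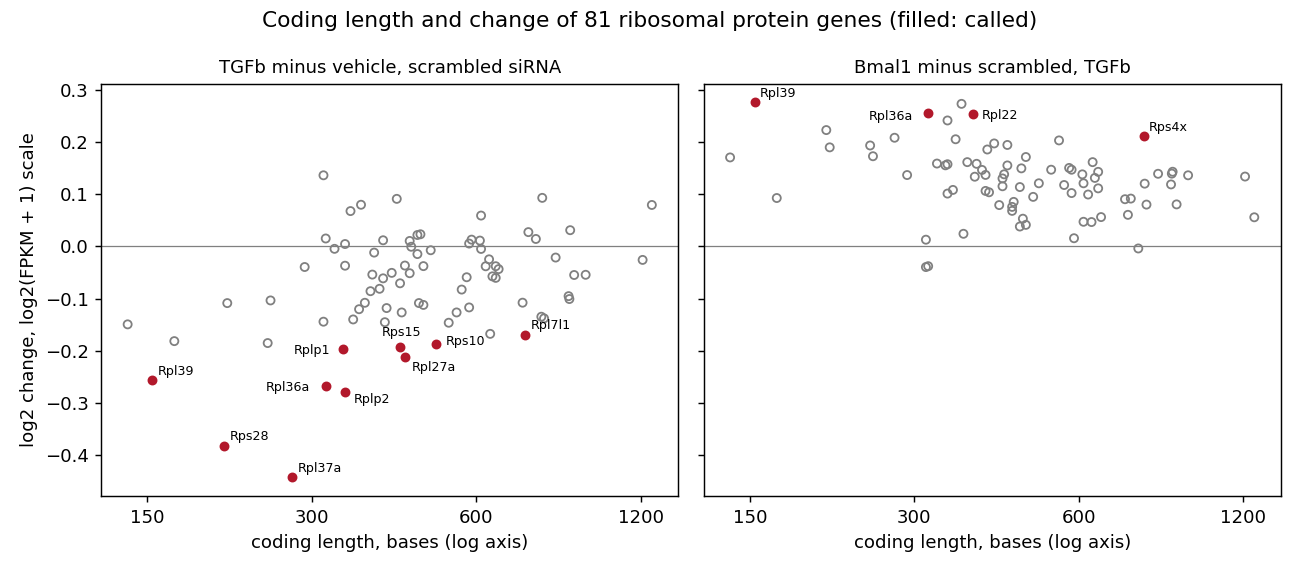
Log2 change of each tested ribosomal protein gene against its coding length in bases, for TGFb against vehicle under scrambled siRNA and for Bmal1 against scrambled siRNA under TGFb. Spearman's rho is 0.296 and -0.335 over 81 genes, and the lowest points of the scrambled siRNA panel, Rpl37a (-0.44) and Rps28 (-0.38), are short.

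By the letters at their start, the members differed as follows, given without a test. The 6 members with CACGTG had median log2 changes of -0.04 for Bmal1 siRNA with vehicle and 0.14 with TGFb, against -0.06 and 0.14 for 55 members with a window and no CACGTG. Among them Rpl23, whose E-box shown above lies at the start itself, had 272.8, 337.39 and 301.18 FPKM with Bmal1 siRNA and TGFb, against 248.2, 274.58 and 269.46 with scrambled siRNA and TGFb (log2 change 0.20, limma adjusted p = 0.0611). The 31 members with a run of at least 6 pyrimidines had a median of -0.05 with TGFb under scrambled siRNA, against -0.10 for 30 with a shorter run. Under Bmal1 siRNA the medians were 0.11 and 0.09.

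The symbol rule does not catch every ribosomal protein. Fau, whose protein is made fused to a ubiquitin-like protein, had a mean of 304.6 FPKM and passed no test. Rack1, a scaffold on the small subunit, had 775.4, 837.88 and 810.34 FPKM with TGFb against 691.89, 708.32 and 714.61 with vehicle under Bmal1 siRNA. It rose there, with a log2 change of 0.20 ± 0.058 (SE; limma adjusted p = 0.0315). The call was lost without the second or the third Bmal1 siRNA TGFb library and without any 1 of the Bmal1 siRNA vehicle libraries.

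A larger share of the factors that assemble ribosomes passed the test with TGFb. Under scrambled siRNA, TGFb raised 32 of 56 assembly factors (57.1%) and lowered none, with a median log2 change of 0.22. Under Bmal1 siRNA it raised 22 of 56 (39.3%) and lowered none, with a median of 0.24. Of all genes, 16.4% were called higher and 29.1% lower under scrambled siRNA, and 8.9% and 10.1% under Bmal1 siRNA. Rrp12, an export factor for both subunits, had 12.15, 7.72 and 11.44 FPKM with TGFb against 7.87, 6.44 and 6.17 with vehicle under Bmal1 siRNA. Under scrambled siRNA it had 15.41, 12.13 and 12.04 FPKM with TGFb against 8.6, 8.09 and 7.11 with vehicle. Its log2 changes were 0.53 (limma adjusted p = 0.0205) and 0.66 (limma adjusted p = 0.00208). The second TGFb library under Bmal1 siRNA was the lowest of its group and overlapped the vehicle libraries.

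Under scrambled siRNA, Heatr1, needed for ribosomal RNA transcription, rose by a log2 change of 0.45 (limma adjusted p = 0.00743) and Mdn1, the AAA ATPase that strips factors from the large subunit, by 0.44 (limma adjusted p = 0.0185). Under Bmal1 siRNA, Mrto4, a stalk assembly factor, had 34.59, 31.23 and 33.61 FPKM with TGFb against 24.6, 25.21 and 24.32 with vehicle. Its log2 change was 0.41 ± 0.0634 (SE; limma adjusted p = 0.000845). Ppan, a large-subunit factor, changed by 0.42 (limma adjusted p = 0.0211). With vehicle, the Bmal1 siRNA called none of the 56 (median -0.10), where 0.66% of all genes were called. With TGFb it called 1 lower (1.79%, against 7.16% of all genes). This was Rrp9, a U3 snoRNA-binding protein (log2 change -0.28, limma adjusted p = 0.0466), whose call was lost in 11 of 23 alternative settings.

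The count for TGFb under scrambled siRNA was 18 without the first scrambled TGFb library and 18 without the third scrambled vehicle library. Under Bmal1 siRNA it was 43 without the second Bmal1 siRNA TGFb library, 6 without the first and 6 without the third of that group, and 7 without the second or the third Bmal1 siRNA vehicle library. Scaled to the ribosomal protein median it was 1, and it was 13 with equal totals or no filter on low values and 14 with only the groups compared. With 1 library left out, 1566 to 1987 of all 11208 genes were called higher with TGFb under scrambled siRNA. Under Bmal1 siRNA, 490 to 1535 were.

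RNA polymerase I genes gave 5 of 15 higher (33.3%, against 16.4% of all genes) and 1 lower (6.67%, against 29.1%) with TGFb under scrambled siRNA. Cd3eap, a polymerase I subunit, had 20.05, 19.12 and 19.56 FPKM with TGFb against 14.95, 14.41 and 14.64 with vehicle, a log2 change of 0.39 ± 0.0483 (SE; limma adjusted p = 2.26e-05). Twistnb, another subunit, changed by 0.35 (limma adjusted p = 0.00212). Polr1d, a subunit shared with polymerase III, was lower, with a log2 change of -0.22 (limma adjusted p = 0.00732). Under Bmal1 siRNA, 1 of 15 was called higher (6.67%, against 8.9% of all genes), Taf1c, part of the promoter-selectivity factor (log2 change 0.34, limma adjusted p = 0.00773). Cd3eap was lower with Bmal1 siRNA than with scrambled siRNA under TGFb, with 15.55, 14.37 and 15.56 FPKM against 20.05, 19.12 and 19.56 (log2 change -0.35, limma adjusted p = 0.000285). With 1 library left out, the higher calls ranged from 3 to 5 under scrambled siRNA and from 1 to 7 under Bmal1 siRNA, with 7 without the second Bmal1 siRNA TGFb library. The TGFb response of Cd3eap differed between siRNAs by -0.26 (limma adjusted p = 0.0227), and that of Polr1d by 0.26 (limma adjusted p = 0.0492). Each is 1 of 15 genes (6.67%), where 5.52% of all genes were called in the direction of Cd3eap and 8.86% in that of Polr1d. Of 22 alternative settings, 5 lost the call for Cd3eap and 16 that for Polr1d.

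**Figure D5:**
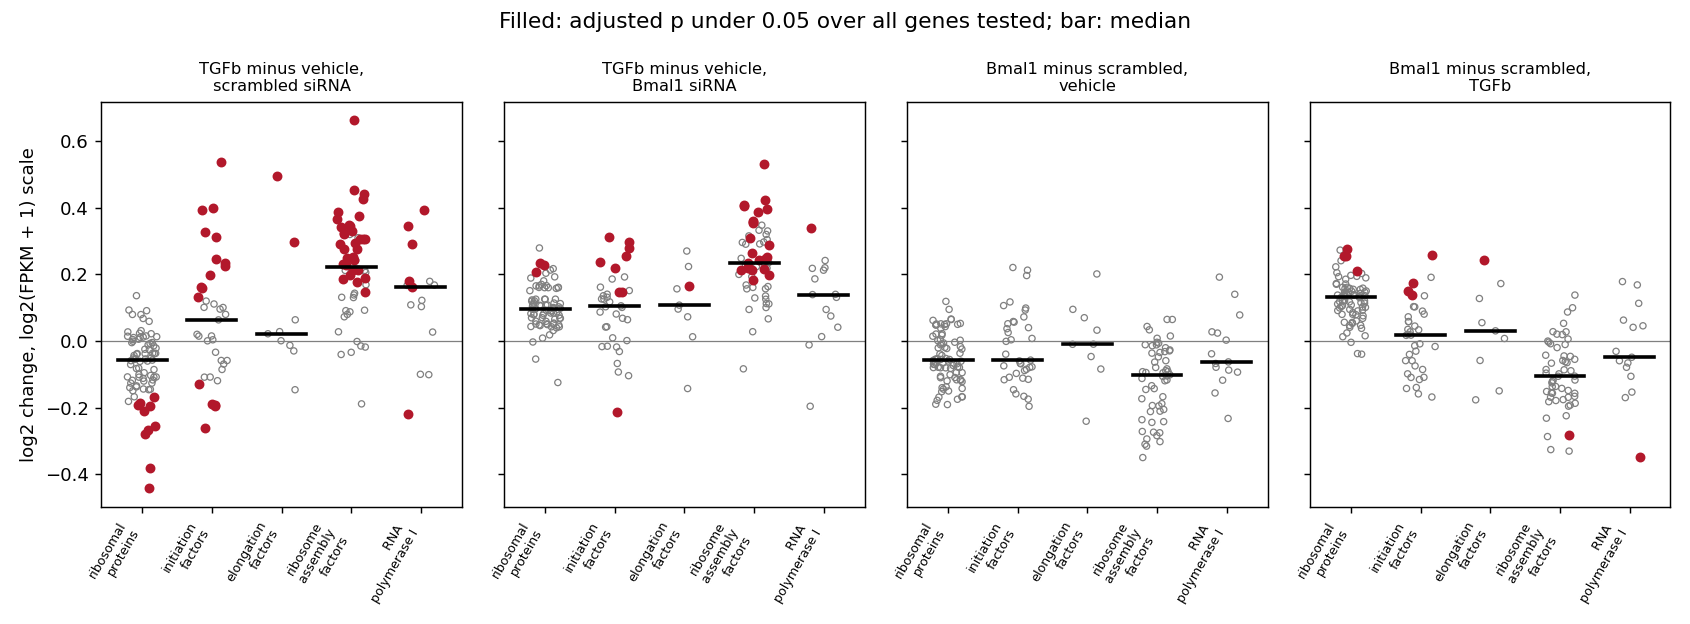
Log2 change of every tested gene of 5 lists (ribosomal proteins, initiation factors, elongation factors, assembly factors and RNA polymerase I) in the 4 comparisons; bars mark the list medians. Assembly factors centre on 0.22 and 0.24 with TGFb under scrambled and Bmal1 siRNA, where ribosomal proteins centre on -0.06 and 0.10.

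Initiation factors, which bring mRNA and initiator tRNA to the small subunit, moved in both directions. With TGFb under scrambled siRNA 12 of 37 rose (32.4%, against 16.4% of all genes) and 5 fell (13.5%, against 29.1%). Under Bmal1 siRNA 8 rose (21.6%, against 8.9%) and 1 fell (2.7%, against 10.1%). Eif3c, a core subunit of the eIF3 complex, had 257.52, 270.59 and 258.34 FPKM with TGFb against 176.07, 182.61 and 182.2 with vehicle under scrambled siRNA, a log2 change of 0.54 ± 0.0404 (SE; limma adjusted p = 3.49e-07). Its response was smaller under Bmal1 siRNA, by -0.23 (limma adjusted p = 0.0198). Eif3m, another subunit of the same complex, was lower with TGFb under scrambled siRNA (log2 change -0.26, limma adjusted p = 0.00118). With Bmal1 siRNA under TGFb 4 of 37 were higher (10.8%, against 16.0% of all genes), among them Eif4b, a helper of the helicase eIF4A (log2 change 0.26, limma adjusted p = 0.0107), and with vehicle none was called. With 1 library left out at a time, the calls with TGFb under scrambled siRNA ranged from 7 to 13 higher and 1 to 6 lower, both lowest without the first scrambled TGFb library. Under Bmal1 siRNA they ranged from 4 to 14 higher, with 14 without the second and 4 without the first or the third Bmal1 siRNA TGFb library. Of 9 genes listed with the elongation factors, 2 rose with TGFb under scrambled siRNA (22.2%, against 16.4% of all genes). They were Eef2k, the kinase that inhibits eEF2 (log2 change 0.50, limma adjusted p = 0.000169), and Eef1e1 (0.30, limma adjusted p = 0.0238). Eef2k is not itself an elongation factor, so that share describes the list and is not a rise of elongation factors. Of those 9, Eef1g rose with TGFb under Bmal1 siRNA (0.17, limma adjusted p = 0.0496) and Eef1b2 was higher with Bmal1 siRNA under TGFb (0.24, limma adjusted p = 0.0376), 1 of 9 in each case (11.1%, against 8.9% and 16.0% of all genes). With 1 library left out, the call for Eef1g was lost in 10 of 12 fits, that for Eef1b2 in 6 and that for Eef1e1 in 4.

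Other TOP mRNAs give a set that shares the tract but not the ribosome. With TGFb under scrambled siRNA 2 of 17 rose (11.8%, against 16.4% of all genes) and 2 fell (11.8%, against 29.1%), and with 1 library left out both counts ranged from 0 to 3. Under Bmal1 siRNA 2 rose (11.8%, against 8.9%; 0 to 3 with 1 library left out) and none fell. With Bmal1 siRNA under TGFb 5 of 17 were higher (29.4%, against 16.0% of all genes; 3 to 6 with 1 library left out), a list that shares Eif4b and Eef1b2 with the factors above. Npm1, a nucleolar chaperone, had 569.71, 591.31 and 585.09 FPKM with Bmal1 siRNA against 471.12, 493.64 and 501.33 with scrambled siRNA, a log2 change of 0.25 ± 0.0433 (SE; limma adjusted p = 0.00133).

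Of 24 genes that control ribosome supply, TGFb under scrambled siRNA raised 4 (16.7%, against 16.4% of all genes) and lowered 9 (37.5%, against 29.1%). Under Bmal1 siRNA it raised 4 (16.7%, against 8.9%) and lowered 3 (12.5%, against 10.1%), where leaving out the second Bmal1 siRNA TGFb library gave 6 lower and leaving out the first or the third library of that group gave 1. Myc, the transcription factor that drives ribosome production, had 115.11, 72.96 and 108.37 FPKM with TGFb against 73.08, 65.21 and 63.74 with vehicle under Bmal1 siRNA. Under scrambled siRNA it had 128.86, 110.93 and 107.65 FPKM with TGFb against 82.77, 75.28 and 65.49 with vehicle. The log2 changes were 0.52 (limma adjusted p = 0.0207) and 0.63 (limma adjusted p = 0.0026). Under Bmal1 siRNA the groups overlapped, with 72.96 FPKM in the second TGFb library and 73.08 in the first vehicle library. That call for Myc was lost in 6 of 23 alternative settings, 4 of them fits with 1 library left out. Mxd4, a Myc antagonist, had 41.13, 46.99 and 38.24 FPKM with TGFb against 57.34, 48.83 and 52.72 with vehicle under Bmal1 siRNA. Under scrambled siRNA it had 33.73, 32.91 and 30.3 FPKM with TGFb against 57.82, 57.44 and 57.23 with vehicle. Its TGFb response was thus a fall under both siRNAs, by a log2 change of -0.33 (limma adjusted p = 0.00789) and -0.81 (limma adjusted p = 1.62e-06), and the difference of 0.49 passed the test (limma adjusted p = 0.0087). Sesn1, a stress-induced inhibitor of mTORC1 signalling, and Pdcd4, an inhibitor of the helicase eIF4A, fell with TGFb under scrambled siRNA (-0.69 and -0.65, limma adjusted p of 1.82e-05 and 1.44e-05). Eif4ebp1, the repressor of cap binding that mTOR switches off, rose under both (0.35 under Bmal1 siRNA and 0.54 under scrambled siRNA, limma adjusted p of 0.0048 and 4.73e-05).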

How the data were processed

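Total RNA of 12 EMS404 libraries was sequenced. RNA of low integrity was discarded, and 1 of 2 extraction kits was used by sample abundance; the kit of each sample is not stated. Expression was deposited by the authors as FPKM in 1 table, per the file headers. The submitters' processing notes name DESeq2, RSEM, Bowtie2 2.2.5, HISAT2 2.0.4 and the build mm10, with no roles. Sequencing depth and the handling of reads that fit several genes are not stated in the labels or the file. Of 16290 lines, 555 without an identifier (1.304% to 1.464% of the FPKM total) and 15 repeated identifiers were dropped. Symbols for 15694 of 15720 identifiers, exons, coding lengths and copies came from a GRCm38 annotation, the assembly behind mm10, and promoter windows from RefSeq.

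limma 3.58.1 (R 4.3.3), with an intensity trend and a group-means model over all 12 libraries, was run on log2(FPKM + 1) for 11208 genes that averaged 0.5 FPKM or more. Tests were two-sided, with Benjamini-Hochberg adjustment over all these genes and a threshold of 0.05. A fold change on this scale understates the change of low genes. The fit was tested on simulated data with known log2 changes. Of changes of 0.25 it recovered 30% to 44% in the pairwise comparisons and 6% in the difference between responses. Of changes of 0.5 it recovered 82% to 94% and 72%. Changes of the size seen in most members would thus often be missed.

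The members and all gene lists were chosen with earlier results of these data known. Named members were, per comparison, up to 5 called rises and 5 called falls with groups that do not overlap, the 5 members farthest from the members' median, paralogue pairs, the 3 highest and 3 lowest levels and those under the filter; of other lists, up to 3 called genes per direction. Results of some genes under this rule are not reported here. The submitters call the triplicates biological, and whether separate cultures were used is not stated, so a p-value here reflects sample-to-sample spread that may be technical. The numbers 1 to 3 in the titles were not treated as pairs, since correlations of same-numbered deviations ran from -0.149 to 0.475. Alternatives were other pseudocounts (0.1 and 5), filters (none, 2 FPKM), 4 other scalings, a replicate block, the compared groups alone, each library left out, and both second TGFb libraries left out.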

Additional observations from a re-analysis of the deposited data

Results flagged for a closer look

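In 3 ribosomal protein genes the TGFb response differed between the Bmal1 siRNA and the scrambled siRNA by the test of the difference itself (limma, adjusted p under 0.05). They are 3.7% of the members, where 8.86% of all genes were called in that direction and 14.4% in either. None of the 3 calls held under median-of-ratios scaling. The difference on the log2 scale was 0.39 for Rps28, 0.35 for Rpl27 and 0.30 for Rps10. The call for Rps28 was lost in 14 of 22 alternative settings, that for Rps10 in 11 and that for Rpl27 in 4, and the difference kept its sign in each of them (0.19 to 0.46 for Rps28, 0.15 to 0.41 for Rpl27 and 0.10 to 0.35 for Rps10).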

How the results depend on the processing

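For TGFb under scrambled siRNA, the 10 lower calls became 5 with no filter on low values, 3 under median-of-ratios scaling, 3 when scaled to the ribosomal protein median and 16 without both second TGFb libraries. The 0 higher calls became 2 with equal totals, 6 under quantile normalization and 6 at the ribosomal protein median. For TGFb under Bmal1 siRNA, the 3 higher calls became 1 with no filter, 6 with equal totals, 13 under quantile normalization, 0 at the ribosomal protein median and 1 with only the groups compared. There, 1 member was called lower under quantile normalization, at the ribosomal protein median and without both second TGFb libraries. For Bmal1 siRNA with TGFb, the 4 higher calls became 1 with no filter, 0 under median-of-ratios scaling, 8 under quantile normalization, 0 at the ribosomal protein median, 0 with only the groups compared and 2 without both second TGFb libraries. For the difference between responses, the 3 calls became 1 with no filter, 0 under median-of-ratios scaling, 5 under quantile normalization and 0 at the ribosomal protein median. Scaling to the ribosomal protein median also set the members' median log2 change to 0.03, -0.02, -0.01 and -0.03 in these comparisons, by construction. All-gene counts under these alternatives or with a replicate block are not reported here, apart from those given above for TGFb under scrambled siRNA.

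With 1 library left out, the lower calls for TGFb under scrambled siRNA ranged from 2 to 12 and the higher ones from 0 to 1, and the members' median from -0.09 to -0.01. For TGFb under Bmal1 siRNA the higher calls ranged from 0 to 7, the lower ones from 0 to 1 and the median from 0.06 to 0.14. For Bmal1 siRNA the calls stayed at 0 with vehicle, with a median from -0.08 to -0.01, and ranged from 0 to 25 with TGFb, with a median from 0.08 to 0.18. For the difference they ranged from 0 to 14, with a median from 0.12 to 0.22.

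The replicate numbers were not treated as pairs, as no comparison has every correlation over 0.1. Single correlations were higher: 0.37 for the first libraries in TGFb under Bmal1 siRNA. They were 0.475 and 0.299 for the first and second libraries in Bmal1 siRNA with TGFb. Whether same-numbered libraries share a batch was not tested. With a replicate block, 8 members were called lower with TGFb under scrambled siRNA, 3 higher under Bmal1 siRNA, 1 lower with Bmal1 siRNA and vehicle, 6 higher with Bmal1 siRNA and TGFb, and 4 in the difference, while the assembly factors called higher with TGFb were 38 under each siRNA. Under quantile normalization, 2 members without a call on the deposited scale were called with the opposite sign: Rpl3 rose by a log2 change of 0.11 with TGFb under scrambled siRNA (limma adjusted p = 0.0419), and Rps2 was lower by a log2 change of -0.17 with TGFb under Bmal1 siRNA (past the threshold there). The cause was not tested. Of the other values of named genes under the alternatives, 5252 kept their direction and side of the threshold, 418 lost a call, 55 gained one, and 126 without a call changed sign.

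With 3 libraries a group and members' standard errors of about 0.07 (median 0.0712 for TGFb under scrambled siRNA), members without a call are not shown to be unchanged.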
